A study of Mus musculus with 18 samples.

Results

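The genes described here make the enzymes that break down fatty acids, the proteins that carry fatty acids and their coenzyme A (CoA) esters, and the proteins that build peroxisomes. They were chosen by symbol: the acyl-CoA synthetases Acsl, Acsm and Acss, the fatty acid binding proteins Fabp, the carnitine transferases Cpt1, Cpt2, Crat and Crot, the beta-oxidation enzymes Acad, Hadh, Ech, Acaa, Acox, Ehhadh and Decr1, the thioesterases Acot, the peroxins Pex, and the transcription factor Ppara. The choice used names and no measured value, though it was made with earlier results of these data known. It took 124 of 46643 probes in the table of B6 and NZW, for 72 of 34509 gene symbols. Of these, 69 probes of 33 genes carry a search key that is also found in the table of BALB/C, DBA1 and 129/svj, where it led to 42 of 46147 rows, and the other 55 probes could be read in B6 and NZW only.

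RNA of the kidney cortex of 15 mice aged 2 months, 3 of each inbred strain, was read on 18 Illumina BeadChips, arrays on which each probe sits on many beads. Every mouse had been challenged with anti-GBM antibody, which binds the glomerular basement membrane of the kidney. B6 and BALB/C are labelled resistant to the nephritis that follows, and DBA1, 129/svj and NZW sensitive. No unchallenged mouse was among the arrays, the time from challenge to tissue is not given in the sources used here, and a strain's label cannot be told apart from the rest of its genome. Where the labels name a repeat array of mouse 1 (BALB/C, DBA1 and 129/svj), its values were averaged with those of the first. Strains were compared within each table, since the tables were read apart and table and strain cannot be told apart across them.

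Beta-oxidation cuts fatty acids stepwise to acetyl-CoA and is the main source of energy of the proximal tubule, the part of the nephron that makes up most of the kidney cortex. Fatty acids are activated to acyl-CoA by synthetases, enter mitochondria as carnitine esters, and are shortened by a dehydrogenase, a hydratase, a second dehydrogenase and a thiolase. Peroxisomes shorten very long and branched chains by a parallel route, and thioesterases split acyl-CoA back to the free acid. Ppara is a nuclear receptor that responds to fatty acids and switches on many of these genes through direct repeats of the hexamer AGGTCA.

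Values are log2 signals, corrected for background and quantile normalised within a table, and a difference of 1 on this scale is a doubling. The median raw signal of an array was 81.1 to 89.8 for B6 and NZW and 118.5 to 151.6 for BALB/C, DBA1 and 129/svj, and on each array 30.5% to 36.4% of probes stood above the negative controls at a detection p of 0.05. Probes detected in at least 3 mice were tested with limma, with Benjamini-Hochberg adjustment over all probes tested in the table, and a probe is called here when its adjusted p was below 0.05. Such p-values measure the spread between the mice of a strain. In whole cortex, fewer cells of a type and less RNA per cell cannot be told apart. Mice of a strain correlated at 0.959 to 0.993. DBA1 mouse 3 stood apart: it correlated with the other DBA1 mice at 0.961 and 0.960, while those correlated with each other at 0.987. To a lesser degree so did 129/svj mouse 3, at 0.974 and 0.959, while the other 129/svj mice correlated at 0.983.

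Most of the genes were readable in this tissue. Of the 124 probes, 81 were tested in B6 and NZW, which is 65.3% against 36% of all probes, and they cover 55 of the 72 genes. A signal was detected in every mouse for 72 probes and in no mouse for 37. Among the 17 genes with no tested probe were Acot5, Acot10, Acox3, Acsl3, Acsl6, Acsm3, Cpt1c, Crot, Fabp1, Fabp2, Fabp4, Fabp5, Fabp6, Fabp7, Fabp9 and, under that symbol, Pex2. The older symbol of Pex2, Pxmp3, lies outside the choice by name. One of its probes was detected in all 6 mice and was not called (B6 minus NZW -0.20, limma adjusted p = 0.273). In the table of BALB/C, DBA1 and 129/svj, 25 of the 42 rows were tested (59.5%, against 34.3% of all rows) and they cover 23 of 33 genes.

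Between B6 and NZW, Ppara and genes of mitochondrial beta-oxidation were lower in the resistant strain, while the thioesterases Acot12 and Acot11 were higher. Of the 81 tested probes, 18 (of 14 genes) were called lower in B6, or 22.2%, against 9.6% of all 16764 probes tested, and 3 were called higher, or 3.7%, against 9.24% of all. The median difference, B6 minus NZW, was -0.21 over the members and -0.042 over all probes tested, and 57 of the 81 members were below 0. The other 60 members were not called. At an unadjusted p under 0.05 there were 36 of the 81, the called ones included, against 32.3% of all probes.

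The counts varied with the filter and with single mice. Among the 72 members detected in every mouse, where the filter cannot favour the brighter strain, 17 were called lower (23.6%, against 10.4% of all probes so filtered) and 3 higher (4.17%, against 7.86%), and the median was -0.20. With 1 probe per gene, 13 of 55 were lower (23.6%, against 9.47% of all) and 3 higher (5.45%, against 9.55%). Scaling each array to its 75th percentile gave 24 members lower (29.6%, against 13.5% of all) and 2 higher (2.47%, against 8.06%), and over all probes it moved the split from 1549 higher and 1610 lower to 1352 and 2269. Leaving out B6 mouse 1, 2 or 3 left 10, 9 or 12 called members, against 15 to 17 when an NZW mouse was left out, while the calls over all probes fell from 3159 to between 1724 and 2626.

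**Figure D1:**
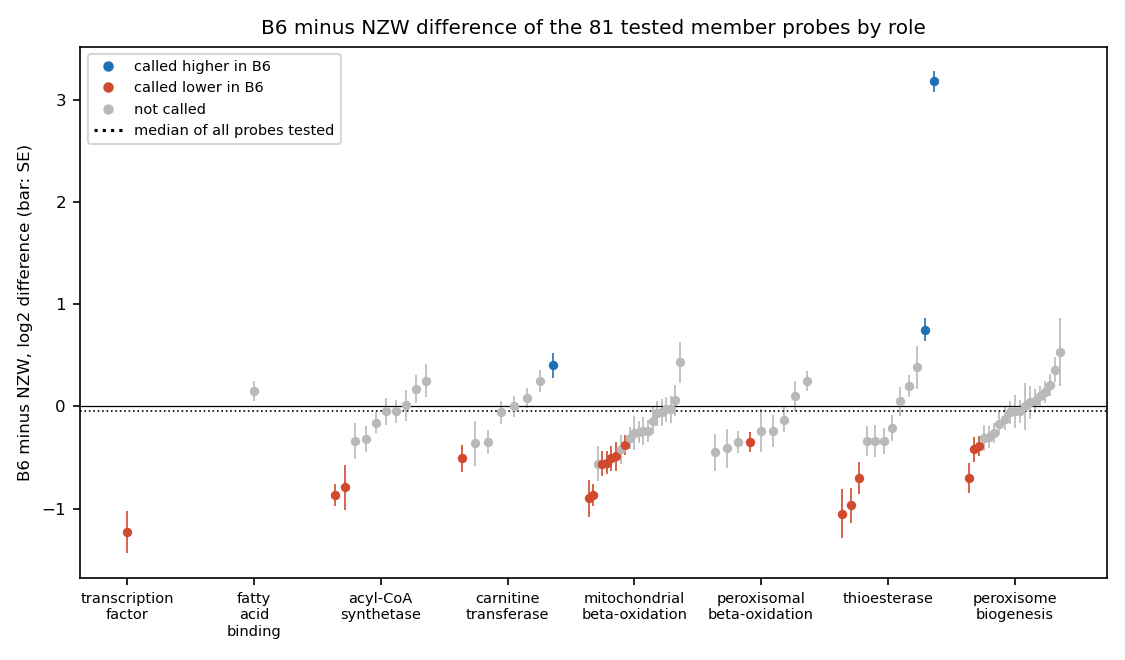
Difference B6 minus NZW of each tested member probe on the log2 scale (y axis, point with its SE) by the role of its gene (x axis), with probes called higher in B6 in blue, called lower in red and not called in grey. The dotted line is the median of all probes tested, and in mitochondrial beta-oxidation 19 of 21 probes lie below 0.

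The sequences shown are the promoters of the members that carried the comparison, Acot12 with the largest difference and Ppara as the receptor known to switch on many genes of these routes, each from 250 bases before to 50 after the start of the gene, as given by RefSeq for GRCm38.p6, 5′ to 3′ on the strand of the gene. Capitals mark the hexamer AGGTCA or its reverse complement TGACCT. Acot12 lies on the plus strand at chr13:91741271-91741570 and Ppara on the plus strand at chr15:85735526-85735825.
Acot12: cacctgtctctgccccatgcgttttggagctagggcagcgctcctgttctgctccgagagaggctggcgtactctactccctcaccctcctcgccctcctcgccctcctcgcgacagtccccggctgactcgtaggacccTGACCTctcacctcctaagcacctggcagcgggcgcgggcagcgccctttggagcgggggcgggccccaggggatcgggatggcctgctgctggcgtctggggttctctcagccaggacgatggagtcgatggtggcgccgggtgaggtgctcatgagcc
Ppara: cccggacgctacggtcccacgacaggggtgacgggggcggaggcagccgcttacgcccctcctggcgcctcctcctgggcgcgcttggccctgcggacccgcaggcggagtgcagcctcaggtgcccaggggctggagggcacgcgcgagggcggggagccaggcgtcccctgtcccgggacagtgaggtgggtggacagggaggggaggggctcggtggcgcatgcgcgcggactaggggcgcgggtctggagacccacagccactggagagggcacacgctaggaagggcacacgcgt
The window of Acot12 holds the hexamer once, on the opposite strand, starting 110 bases before the start of the gene, and that of Ppara does not hold these letters. RefSeq windows were found for 57 of the 72 genes, 68 windows in all. The hexamer, on either strand, was in 15 of these (22.1%) and in 16.3% of all 32851 windows. Of the 17 windows of genes called between B6 and NZW it was in 1, that of Acot12. The direct repeat AGGTCANAGGTCA, which contains the hexamer, was in no window of a member and in 0.0396% of all. A match of letters describes the window and shows no binding.

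Ppara had normalised log2 signals of 8.60, 8.08 and 8.25 in the B6 mice and of 9.19, 9.97 and 9.47 in the NZW mice. The highest B6 mouse lay below the lowest NZW mouse. The difference was -1.23 (SE 0.21, limma adjusted p = 0.00424), so that B6 had 2.35-fold less signal. It was called with each of the 6 mice left out in turn. Its probe has no key in the other table, so BALB/C, DBA1 and 129/svj were not analysed here for Ppara.

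Of the acyl-CoA synthetases, which activate acids of long (Acsl), medium (Acsm) and short (Acss) chains, 10 of 21 probes were tested and 2 were called, both lower in B6 (20%, against 9.6% of all). Acss2, which makes acetyl-CoA from acetate in the cytosol and nucleus, read 11.26, 11.40 and 11.31 in B6 and 12.15, 12.10 and 12.32 in NZW. Those groups lay far apart for their spread, and the difference of -0.87 (SE 0.11, 1.82-fold, adjusted p = 0.000742) was called without any 1 of the mice. Acsm2, of the medium-chain enzymes, was dim, at 5.69, 4.91 and 5.49 in B6 and 5.93, 6.47 and 6.06 in NZW, a difference of -0.79 (SE 0.22, adjusted p = 0.0362). That call was lost when any mouse other than B6 mouse 1 was left out (adjusted p = 0.0514 to 0.0982). Acsl1, the main long-chain synthetase of oxidative tissues, differed by -0.32 (adjusted p = 0.137), Acsl5 by -0.16 and -0.05 on its tested probes, and Acsm1 by -0.34 (adjusted p = 0.23), none of them called.

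The carnitine transferases move acyl groups across the mitochondrial membranes. The enzyme of the outer membrane that sets the pace of entry, Cpt1, has a liver type, Cpt1a, and a muscle type, Cpt1b. Cpt1a differed by -0.06 (SE 0.11) and Cpt2, which hands the chain back to CoA inside, by 0.00 and 0.08 (SE 0.10 each), and neither was called. Cpt1b read 9.46, 9.54 and 9.32 in B6 and 8.89, 9.18 and 9.05 in NZW on its brighter probe, a difference of 0.40 (SE 0.12, 1.32-fold, adjusted p = 0.0493) just past the threshold. Its other probe gave 0.25 (adjusted p = 0.151), and the call was lost under scaling to the 75th percentile (0.263, adjusted p = 0.225) and when any mouse other than NZW mouse 2 was left out (adjusted p = 0.0714 to 0.181). Crat, which exchanges acetyl groups between carnitine and CoA, read 10.44, 10.35 and 10.31 in B6 and 10.63, 11.05 and 10.94 in NZW, a difference of -0.51 (SE 0.13, adjusted p = 0.0287). As on nearly every called probe, the groups did not overlap. The 2 dimmer Crat probes gave -0.36 and -0.35 and were not called. The Crat call was lost when any mouse other than NZW mouse 1 was left out (adjusted p = 0.0648 to 0.0988).

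Of the fatty acid binding proteins, which carry fatty acids through the cytosol, 1 of 9 probes could be tested. It belongs to Fabp3, the type of heart and muscle, which read 12.97, 12.91 and 12.91 in B6 and 12.72, 12.73 and 12.89 in NZW, a difference of 0.15 (SE 0.10, adjusted p = 0.362). Fabp4, the type of fat cells and macrophages, was not detected in any of the 6 mice. Of 5 adipocyte markers, Lep, Plin and Retn were detected in no mouse as well. Cfd was called higher in B6 (adjusted p = 0.0347), at 9.63, 12.31 and 8.97 against 8.69, 5.21 and 5.06, and Adipoq, at 6.5, 9.21 and 6.13 against 6.17, 5.46 and 5.28, was not called (adjusted p = 0.144).

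In mitochondrial beta-oxidation 7 of 21 tested probes, of 5 genes, were called, all lower in B6 (33.3%, against 9.6% of all probes), with a median of -0.26 and 19 probes below 0. Acad9, an acyl-CoA dehydrogenase that is also needed to assemble complex I, read 7.67, 7.46 and 7.49 in B6 and 8.49, 8.36 and 8.37 in NZW on ILMN_1253361, and 6.84, 7.21 and 7.31 against 8.26, 7.72 and 8.08 on ILMN_1225128. The differences were -0.87 (SE 0.11, 1.82-fold, adjusted p = 0.000742) and -0.90 (SE 0.18, 1.87-fold, adjusted p = 0.00811), and both calls held with each mouse left out. Acad10, a relative of the acyl-CoA dehydrogenases, read 9.63, 9.76 and 9.85 in B6 and 10.17, 10.35 and 10.36 in NZW, a difference of -0.55 (SE 0.11, adjusted p = 0.011) whose adjusted p was 0.0533 without B6 mouse 1.

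Hadh, the dehydrogenase of the third step for short and medium chains, was lower on both of its probes. It read 6.11, 6.43 and 6.35 in B6 and 6.89, 6.91 and 6.75 in NZW on the brighter one, a difference of -0.56 (SE 0.12, adjusted p = 0.0134), and the dimmer gave -0.51 (SE 0.12, adjusted p = 0.0213). The dehydrogenases Acadl for long chains and Acads for short chains were called too. Acads read 8.73, 8.78 and 8.81 in B6 and 9.08, 9.16 and 9.23 in NZW, with a difference of -0.38 (SE 0.10, adjusted p = 0.0303). Acadl was called on its dimmer probe, at 5.62, 5.38 and 5.38 against 6.03, 6.09 and 5.72 (-0.49, SE 0.14, adjusted p = 0.0376), and its brighter probe gave -0.56 (SE 0.17, adjusted p = 0.0529). Each of these calls was lost with at least 1 of the mice left out, where the calls over all probes fell as well. The brighter Hadh probe lost it without B6 mouse 1 (adjusted p = 0.0569), the dimmer without B6 mouse 2 or 3 or NZW mouse 1 or 2 (0.05 to 0.0908), Acadl without the same 4 mice (0.0933 to 0.135), and Acads without any mouse other than NZW mouse 1 (0.0584 to 0.108).

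Other enzymes of mitochondrial beta-oxidation, most of them bright, were not called. Acadm, the medium-chain dehydrogenase, differed by -0.24 (SE 0.14, adjusted p = 0.276), Acadvl, that of very long chains, by -0.03 (SE 0.12), and Hadhb, a subunit of the trifunctional protein, by -0.03 (SE 0.13). Acaa2, the mitochondrial thiolase, gave -0.25, -0.14 and -0.06 on its probes (adjusted p = 0.163 to 0.813), and Echs1, the hydratase of short chains, -0.24 and -0.07. Decr1, the reductase that unsaturated chains need, leaned the other way at 0.43 (SE 0.20, adjusted p = 0.183), with NZW mouse 1 at 9.57 and the other NZW mice at 10.29 and 10.40. No probe carried the symbol Hadha.

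Peroxisomal beta-oxidation gave 1 call among 9 tested probes, lower in B6 (11.1%, close to the 9.6% of all probes). Acaa1b, a thiolase of peroxisomes, read 13.72, 13.78 and 13.73 in B6 and 14.04, 14.15 and 14.10 in NZW, near the top of the scale, with a difference of -0.35 (SE 0.10, 1.28-fold, adjusted p = 0.0379). Its close relative Acaa1a differed by as much, -0.35 (SE 0.11), with an adjusted p of 0.063, and the transcripts are so alike that a probe of either may read both. Ehhadh, the bifunctional enzyme of the middle steps, differed by -0.24, Acox2, the oxidase of branched chains and bile acid precursors, by -0.13, and Ech1, an isomerase, by 0.25, none of them called. The Acaa1b call went when any mouse other than NZW mouse 1 was left out (adjusted p = 0.0741 to 0.121).

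Of the peroxins, 19 of 30 probes were tested and 3 were called, all lower in B6 (15.8%, against 9.6% of all). Pex3 and Pex16, which place proteins in the peroxisomal membrane, differed by -0.42 (SE 0.12, adjusted p = 0.037) and -0.70 (SE 0.15, adjusted p = 0.013). Pex3 read 8.64, 8.42 and 8.49 in B6 and 9.05, 8.95 and 8.81 in NZW, and Pex16 5.33, 5.47 and 5.81 against 6.16, 6.42 and 6.13. As on nearly every called probe, neither gene's groups overlapped. Pex14, the dock of the import receptor, read 9.57, 9.67 and 9.58 in B6 and 9.94, 10.03 and 10.03 in NZW (-0.39, SE 0.10, adjusted p = 0.0274). The Pex16 call was lost without B6 mouse 1 or 2 (adjusted p = 0.0544 and 0.0552), and those of Pex3 and Pex14 without any mouse other than NZW mouse 3 (Pex3) or NZW mouse 1 (Pex14) (0.057 to 0.148). The import receptors Pex5 (-0.26 and -0.05) and Pex7 (-0.06), and Pex11a, which acts in peroxisome division (-0.31 to -0.12 on 3 probes), were not called, and the median over the peroxins was -0.05, close to that of all probes.

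The thioesterases held the largest difference among the members and calls in both directions, 3 of 12 tested probes lower (25%, against 9.6% of all) and 2 higher (16.7%, against 9.24%). Acot12, which splits acetyl-CoA in the cytosol, read 10.42, 10.50 and 10.29 in B6 and 7.21, 7.22 and 7.23 in NZW on ILMN_1240565. The NZW mice differed by 0.01 (SD) and the strains by 3.18 (SE 0.10, 9.09-fold, adjusted p = 2.06e-07). The difference rests on that probe, since the other Acot12 probe was detected in no mouse of either strain. It is a difference in the signal of the probe: sequence variants between the strains under the probe can change such a signal, and their part in it was not tested.

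Acot11, which acts on long chains and is known from brown fat, was also higher in B6, at 8.69, 8.64 and 8.83 against 7.96, 8.04 and 7.91 (0.75, SE 0.11, 1.69-fold, adjusted p = 0.00141). Its dimmer probe gave 0.38 (adjusted p = 0.25). Acot7, a hydrolase of long-chain acyl-CoA that is abundant in brain, was lower in B6 on each of its 3 probes. On ILMN_2606180 it read 8.09, 8.09 and 8.56 in B6 and 9.47, 9.07 and 9.10 in NZW, a difference of -0.97 (SE 0.17, 1.96-fold, adjusted p = 0.0045), and the others gave -1.05 (SE 0.24, adjusted p = 0.0187) and -0.70 (SE 0.16, adjusted p = 0.0174). B6 mouse 3 was the highest of its strain on all of them and still below every NZW mouse. The calls of Acot12, Acot11 and ILMN_2606180 held with each mouse left out, while -1.05 was lost without B6 mouse 1 or 2 or NZW mouse 1 or 3 (adjusted p = 0.0655 to 0.0704) and -0.70 without B6 mouse 1 or 2 or NZW mouse 1 (0.0565 to 0.0731). Acot2, Acot3 and Acot4, neighbours in 1 gene cluster with similar sequences, gave -0.34 each and were not called.

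**Figure D2:**
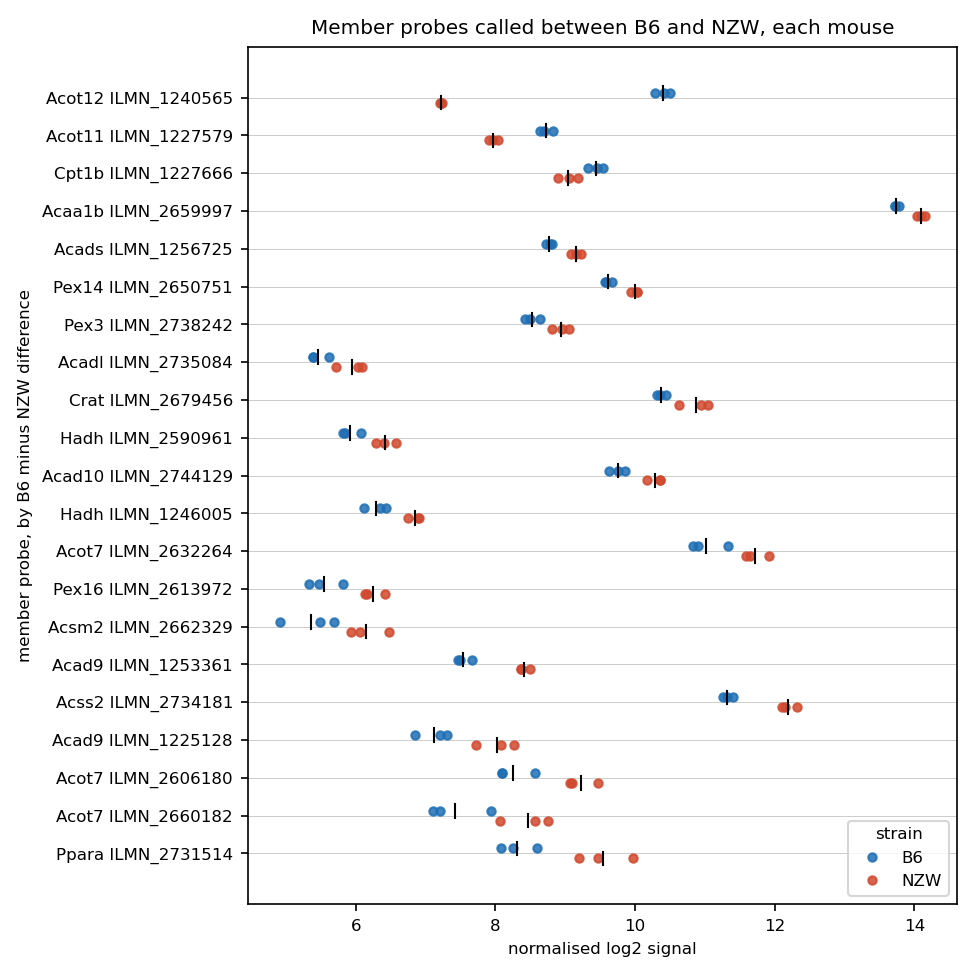
Normalised log2 signal (x axis) of the 21 member probes called between B6 and NZW (y axis, by the size and sign of the difference), with each B6 mouse in blue, each NZW mouse in red and the strain mean as a black bar. The strains do not overlap on any of these probes, which holds for nearly every called probe of the array, and the gap is widest for Acot12.

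In all, 7 of the 21 calls held with each mouse left out in turn: those of Ppara, Acss2, Acot11, Acot12, both Acad9 probes and 1 Acot7 probe. The other 14 were lost without at least 1 mouse, with adjusted p-values from 0.05 to 0.181, and none changed sign. Strains that do not overlap add little to a call, since nearly every called probe of the whole array had them. Over all 81 members they were found on 30 probes lower in B6 (37%, against 21.1% of all probes tested) and 11 higher (13.6%, against 16.2%). Of these, 12 lower (14.8% of the 81, against 11.5% of all probes tested) and 8 higher (9.88%, against 6.96%) were not called. Of the 20 genes with several tested probes, 3 had every probe called, 4 some of them and 13 none, and the probes differed in sign for Acadsb and Cpt2.

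Other genes of the pathway, a list of 54 that are not members, had calls in both directions. Of 60 tested probes, 9 were called higher in B6 (15%, against 9.24% of all) and 13 lower (21.7%, against 9.6%), with a median of -0.08. Idh1, which makes NADPH in cytosol and peroxisomes, was higher by 2.46 (SE 0.12) and 2.55 (SE 0.10) on its probes, Nudt19, which splits CoA in peroxisomes, by 1.32 and 1.11, and 1 of 3 probes of Abcd3, which carries acyl-CoA into peroxisomes, by 1.20, where the others gave -0.11 and -0.20 and were not called. One probe of Pxmp2, a channel of the peroxisomal membrane, was higher by 3.77 while its other probe gave -0.16 and was not called. Lower in B6 were the peroxisomal oxidases Dao1 (-1.55) and Hao3 (-1.43), the ketone body enzyme Bdh1 (-0.61 to -1.36), the peroxisomal reductases Decr2 (-1.07) and Pecr (-0.52), and the mitochondrial carrier Ucp2 (-1.06). A dimmer Decr2 probe was detected in each NZW mouse and in no B6 mouse, which makes it at least 1.85-fold lower in B6, counting each B6 array at the lowest signal detected on it or at the probe's own signal where higher. That probe passed the detection filter through the NZW mice alone, so the filter favoured its call, which is 1 of the 13 lower ones. Ivd, of leucine breakdown, was called higher on 1 probe (0.80) and lower on another (-0.42). The mean level over these 60 probes was 9.82 to 9.87 in the B6 mice and 9.78 to 9.85 in the NZW mice, ranges that overlap, while that over the 81 members was 8.82 to 8.86 and 8.98 to 9.01.

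Markers of the proximal tubule moved the same way as the members between B6 and NZW. Their mean over 13 probes was 10.68 to 10.83 in the B6 mice and 11.07 to 11.25 in the NZW mice, and 4 were called lower in B6 (30.8%, against 9.6% of all) and none higher: Slc5a12 (-1.35), 1 of 2 tested probes of Lrp2 (-1.16), Cubn (-0.60) and the dimmer of 2 probes of Aqp1 (-0.53). The brighter Aqp1 probe gave -0.26 (adjusted p = 0.151) and the other Lrp2 probe -0.16 (adjusted p = 0.411). Of the 5 tested probes of tubule injury markers, Havcr1 (-2.77) and Krt18 (-0.71) were called lower in B6 (40%, against 9.6% of all). Lcn2 (1.80), Timp1 (1.86) and Spp1 (0.69) were called higher (60%, against 9.24%). In the distal parts 2 of 11 tested probes, both of Slc12a3, were called higher (18.2%, against 9.24%) and none lower. None of 7 endothelial and 11 leukocyte probes was called. Leukocyte means ran from 6.90 to 7.83 in B6 and from 7.0 to 7.23 in NZW. The part of these cell types in the differences of the members was not tested.

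**Figure D3:**
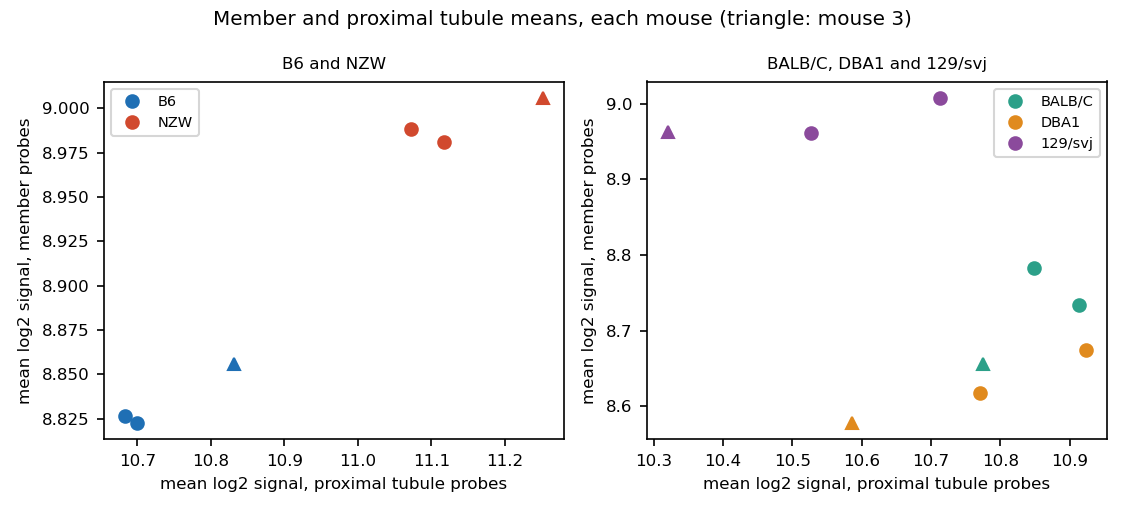
Mean log2 signal over the tested members (y axis) against that over the tested proximal tubule probes (x axis), 1 point a mouse, with mouse 3 of each strain as a triangle, for B6 and NZW (left, 81 members and 13 markers) and for BALB/C, DBA1 and 129/svj (right, 25 and 8). NZW lies above B6 on both axes, while 129/svj has the highest members and the lowest tubule markers by median.

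Among BALB/C, DBA1 and 129/svj few members were called, Acaa2 among them. BALB/C against the mean of DBA1 and 129/svj gave 1 call among 25 tested rows, higher (4%, against 2.98% of all 15817 rows), and none lower (against 3.01%). DBA1 against 129/svj, strains with the same label, gave 3 calls lower in DBA1, of 2 genes (12%, against 2.31%), and none higher (against 2.17%), and 18 of the 25 rows were below 0 with a median of -0.33, against 0.003 over all rows. Taken pairwise, a comparison chosen after the values had been seen, BALB/C had 1 row higher than DBA1 (against 2.86% of all) and none lower (2.89%), and 1 row lower than 129/svj (2.36%) and none higher (2.47%). These comparisons share mice and one estimate of the spread.

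Acaa2 read 11.71, 11.80 and 11.45 in BALB/C, 10.29, 9.80 and 9.53 in DBA1, and 11.39, 11.37 and 11.09 in 129/svj. DBA1 stood alone, with each of its mice below every mouse of the other strains. It was lower than 129/svj by -1.41 (SE 0.20, 2.66-fold, limma adjusted p = 0.00235), and BALB/C was higher than DBA1 by 1.78 (SE 0.20, 3.43-fold, adjusted p = 0.000497) but differed from 129/svj by 0.37 (SE 0.20, adjusted p = 0.456). The call of BALB/C against the mean of both sensitive strains, 1.07 (SE 0.18, 2.1-fold, adjusted p = 0.0049), combines these values. The calls against 129/svj and against the mean held with each of the 9 mice left out. The key of this row is shared by several Acaa2 probes of the other table, so which of them it matches cannot be told.

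The peroxisomal thiolases Acaa1b and Acaa1a had their highest mean in 129/svj, though neither was called. Acaa1b read 13.21, 13.21 and 13.26 in BALB/C, 13.72, 13.54 and 12.71 in DBA1, and 13.86, 14.20 and 14.17 in 129/svj. The BALB/C mice were close together and below every 129/svj mouse (-0.85, SE 0.24, adjusted p = 0.083), and DBA1 minus 129/svj was -0.75 (SE 0.24, adjusted p = 0.146). Acaa1a differed by -0.32 and -0.33 (SE 0.14 each, adjusted p = 0.302 and 0.311). Without DBA1 mouse 3, Acaa1b was called lower in BALB/C than in the mean of both sensitive strains (2 calls in that comparison in place of 1, the 1 lower being 4.35% of 23 rows, against 3.46% of all).

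**Figure D4:**
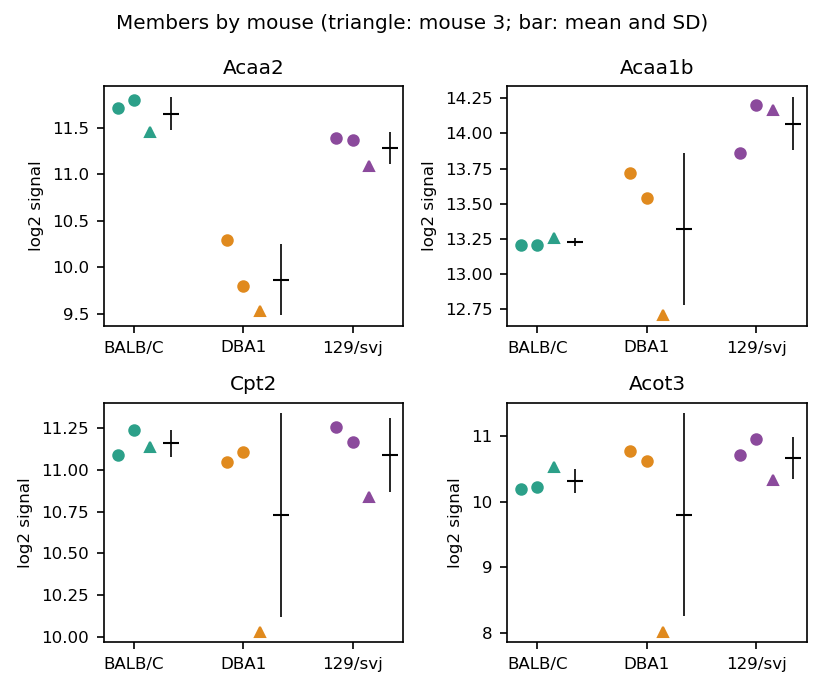
Log2 signal (y axis) of 4 member rows in the mice of BALB/C, DBA1 and 129/svj (x axis), with mouse 3 of each strain as a triangle and the strain mean and SD as a black bar. Acaa2 is low in all DBA1 mice, Acaa1b is highest in 129/svj, and Cpt2 and Acot3 are low in DBA1 mouse 3 alone.

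DBA1 mouse 3 stood apart in the members as it did over the whole array. It lay at least 1 from both other DBA1 mice on the log2 scale in 4 of 25 rows (16%, against 3.83% of all rows). Acot3, a peroxisomal thioesterase, read 8.02 in it and 10.77 and 10.62 in the others, and Cpt2 read 10.03 against 11.05 and 11.11. It was high for Acsl1, at 11.44 against 10.26 and 10.24, and for Acadsb, a dehydrogenase of branched chains, at 6.6 against 5.30 and 5.23. The median SD of the members was 0.343 in DBA1 and 0.321 in 129/svj, against 0.223 and 0.212 over all rows, and 0.179 in BALB/C against 0.172. Without this mouse 4 rows were called lower in DBA1 than in 129/svj (17.4% of 23, against 2.49% of all), with 1 of Acsl1 added and Acaa2 at -1.24.

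Crat, Acad9, Pex11a, Acadm, Acadvl and Acot12 were not called in any comparison of these strains. Crat was detected in each 129/svj mouse and in no DBA1 mouse, at 5.87, 5.89 and 6.32 against 5.38, 5.62 and 5.66, which makes it at least 1.27-fold higher in 129/svj, each DBA1 array counted in the way given above for Decr2. Its fitted difference, -0.47 for DBA1 minus 129/svj, had an adjusted p of 0.352. Acad9 read 7.68, 7.60 and 7.88 in BALB/C, 8.45, 8.23 and 7.78 in DBA1, and 8.55, 9.08 and 8.04 in 129/svj, and BALB/C minus the mean of both was -0.64 (SE 0.23, adjusted p = 0.155). Pex11a gave -0.51 (SE 0.21, adjusted p = 0.223) in that comparison, Acadm -0.22 and Acadvl -0.10. The Acot12 row was near background, detected in 3 of 9 mice, and by its key it corresponds to the Acot12 probe that no B6 or NZW mouse showed, so the difference between B6 and NZW could not be followed in the other strains.

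Of the other pathway genes, 22 rows were tested in these strains. One of 2 rows of Lpl, which frees fatty acids from lipoproteins, was called higher in BALB/C than in the mean of both sensitive strains (4.55% of the rows, against 2.98% of all) and no row lower. The called row was detected in each BALB/C mouse and in no 129/svj mouse, and so its signal was at least 3.68-fold higher in BALB/C than in 129/svj. The brighter Lpl row, detected in all 9 mice, leaned the other way. It gave -0.35 for BALB/C minus the mean of both (SE 0.16, limma adjusted p = 0.271), with means of 11.87 in BALB/C, 12.47 in DBA1 and 11.98 in 129/svj. Nudt7, which splits CoA in peroxisomes, was lower in DBA1 than in 129/svj (-0.78, SE 0.19, adjusted p = 0.0493), the 1 call of that comparison in this list (4.55%, against 2.31%). The proximal tubule mean over 8 rows was 10.78 to 10.91 in BALB/C, 10.59 to 10.92 in DBA1 and 10.32 to 10.71 in 129/svj, and the mean over the 25 members was 8.66 to 8.78, 8.58 to 8.67 and 8.96 to 9.01. So 129/svj had the highest member means and the lowest median of the tubule markers, where NZW had the higher values of both. Of the 8 rows, Slc5a2 and the dimmer tested row of Lrp2 were called higher in BALB/C than in the mean of both (25%, against 2.98% of all). Slc22a6 was called lower (12.5%, against 3.01%). The brighter Lrp2 row gave 0.18 (limma adjusted p = 0.7). Slc5a2 was also higher in DBA1 than in 129/svj (12.5%, against 2.17%), and no row was lower (against 2.31%).

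Across both tables, the question was whether resistant and sensitive strains differed in the same way. Each resistant strain was set against the sensitive strains of its own table and the differences were averaged, for the 23 member pairs of 19 genes that a key unique in both tables joined, of which 14 pairs of 13 genes were tested. Acaa1b was called lower in the resistant strains (7.14% of the 14, against 5.57% of all 6893 pairs) and no member was called higher (against 7.79%). Its mean difference was -0.41 (SE 0.13, 1.33-fold, adjusted p = 0.0485), from -0.35 in B6 and NZW and -0.47 in the other table. That call sat at the threshold: it was lost when any 1 of 13 of the 15 mice was left out, all but DBA1 mouse 3 and 129/svj mouse 1 (adjusted p = 0.0571 to 0.103), with Pex13, called higher, as the 1 call without NZW mouse 1 and Acaa1a, called lower, as that without DBA1 mouse 2. With the strain 129/svj left out the difference was -0.226 (adjusted p = 0.349). The call was also lost with strain as a random block (adjusted p = 0.374), with a replicate block (0.0862), after joint normalization of both tables (0.0883), without the filter on dim probes (0.0986) and by the methods' test once adjusted (0.232), and in all it was lost in 19 of 30 alternatives.

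Its relative Acaa1a leaned the same way without a call, by -0.26 (SE 0.08, adjusted p = 0.0541). Cpt1a (-0.02, SE 0.12), Acadvl (-0.06, SE 0.09) and Echs1 (-0.02, SE 0.19) lay close to 0. Over the 14 pairs, 12 were below 0 with a median of -0.16, against 0.004 over all pairs. Of the 12, Acot12 was detected in 1 DBA1 mouse and 2 129/svj mice only, so it passed the filter through sensitive strains alone. The dimmer Acsl5 pair was detected in 1 B6 mouse and no BALB/C mouse, and in 2 mice of each sensitive strain. The filter favoured a difference below 0 for both, so the count of 12 is not free of it. The difference between both within-table differences was called by limma for no member, with 1 of 14 at an unadjusted p under 0.05, against 11.8% of all pairs called and 23.0% at an unadjusted p under 0.05. That 1 was Acsm2, with -0.79 (SE 0.22) in B6 and NZW and 0.49 (SE 0.33) in the other table (1.29 between them, SE 0.46, adjusted p = 0.0866). Adding pairs whose key several probes share, through the brightest probe and after the values had been seen, gave 3 calls among 27 pairs. Acaa1b and Acad9 were lower in the resistant strains (7.41%, against 5.74% of all 9146 pairs) and Acaa2 higher (3.7%, against 7.61%).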

How the data were processed

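Kidney cortex RNA of 15 mice was measured on Illumina Mouse WG-6 v1 BeadChips. The authors deposited, in 2 tables, the signal intensity of each probe as summarised by BeadStudio, without normalization, and beside it a deposited detection p-value against the negative controls. All signal columns belonged to samples of the series. With limma 3.58.1 in R 4.3.3, intensities were corrected by normexp from the detection p-values (offset 16), quantile normalised within each table and taken to log2; control rows (24 and 39) were dropped and repeat arrays, which correlated at 0.987 to 0.989, averaged. Probes with a detection p of at most 0.05 in at least 3 mice were fitted with lmFit and eBayes, 1 coefficient per strain, and adjusted over all probes tested. Tables were joined in Python 3.11.15 with pandas 2.3.3, by search key (19886 pairs unique in both). Dim signals are compressed towards the offset, and precision is limited by how few arrays there are.

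The members and lists were chosen with earlier results of these data known. Named were up to 10 called members in each direction of each comparison, a list of core genes of the pathway, and members detected in every mouse of 1 strain and no mouse of another; others were named after their values were seen. Alternatives covered background correction, scaling, filter, 1 probe per gene, variance model, blocks, the methods' t-test and each mouse left out. Deviations of same-numbered mice from their strain means correlated at 0.192, 0.105 and 0.387 between DBA1 and 129/svj, and at -0.259 to 0.133 between other strains. The labels name no shared batch, and the differences, SEs and adjusted p-values given for each comparison use no pairing. A replicate block was run as an alternative only. There DBA1 and 129/svj were read as paired and other strains not, from these values alone, whose ranges overlap. In simulated data, bright probes were changed by 0.5, 1 or 2 on the log2 scale, 67, 67 and 66 of them in each comparison. The fit for B6 and NZW (24669 probes) recovered 0%, 56.7% and 98.5% of these, that for DBA1 and 129/svj (34704 probes) 0%, 40.3% and 100%. Far more probes were called in the data, which makes the adjusted threshold less strict there. The simulated shares therefore do not give the recovery in the data. Quantitative PCR and cell experiments were not analysed here, and results for some genes, which the counts include, are not reported here.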

Additional observations from a re-analysis of the deposited data

How the results depend on the processing

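Over the alternatives, the called members of B6 and NZW numbered 2 after joint normalization of both tables (15.4% of 13 matched members tested, against 22.1% of all). They numbered 8 by the methods' t-test once adjusted by Benjamini-Hochberg and 34 at its unadjusted threshold, against 21. With 1 mouse left out they numbered 9 to 17, while the calls over all probes fell from 3159 to between 1724 and 2626. Counts given here without a share over all probes show how the calls moved. They do not set the members against the other probes. BALB/C against the mean of DBA1 and 129/svj kept 1 to 2 calls with 1 mouse left out (454 to 1067 over all rows, against 948). It had 0 after joint normalization (against 6.79% of all) and with the t-test after adjustment, against 1, where the t-test without adjustment called 1, of Pex5. DBA1 against 129/svj had 1 after joint normalization (7.14% of 14, against 5.82% of all), 0 with the adjusted t-test, and 2 to 4 with 1 mouse left out (426 to 731 over all rows, against 709), against 3. The resistant against sensitive comparison, with 1 call, had 2 without background correction, with an offset of 50, with 75th percentile scaling, with detection in every mouse, without the repeat arrays and with eBayes trend and robust, 3 without DBA1, with the unadjusted t-test and with shared keys added, 0 after joint normalization, without 129/svj, with strain as a random block and with the adjusted t-test, and 0 to 1 with 1 mouse left out. For DBA1 and 129/svj, whose same-numbered mice were read as paired, the fit with a replicate block had the same 3 calls, also when fitted to those strains alone, which was added after the data were seen. For the other strains, whose numbers were not read as pairing the mice, the replicate block gave 14 calls in B6 and NZW, 1 in BALB/C against the mean of both, and, in resistant against sensitive, 0. Whether the numbers pair mice in any of the strains is not given by the labels. The cause of these shifts was not tested, except that joint normalization kept only matched probes. Over 26 probe results and 419 alternative values, 306 kept their direction and call, 113 kept the direction only and 0 reversed. The calls of Acad9 on ILMN_1253361, Acot11, Acot12 and Acss2 held under each alternative that was run.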
